A study of Mus musculus with 8 samples.

Results

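Oxidative phosphorylation genes encode the respiratory chain and the ATP synthase of the inner mitochondrial membrane. The genes were chosen by symbol (Nduf, Sdha to Sdhd, Cyc1, Uqcr, the numbered Cox families 4 to 8, Atp5, and the mitochondrial genes mt-Nd, mt-Cytb, mt-Co and mt-Atp) and by a mean of 1 CPM or more over all libraries, where CPM is a gene's count relative to its library's scaled total. Of 52110 table rows with a gene symbol, 114 carried such a symbol and 101 reached that level. The 101 members comprised 88 nuclear genes and all 13 protein-coding genes of mitochondrial DNA. Their mean level thus chose the members and is given as a description. Just inside the limit stood Ndufaf6, at 2.14 CPM, and Cox6b2, at 3.82 CPM, and just outside it Cox6a2, at 0.824 CPM, and the pseudogene Atp5l2-ps, at 0.460 CPM.

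RNA was sequenced from primary wild-type (WT) mouse lung fibroblasts kept in DMEM with fetal bovine serum and collected at 48 hours, untreated or with recombinant TWEAK, a secreted ligand of the TNF family. The 4 groups were untreated cells and cells given 10, 30 or 100 ng/ml, with 2 libraries each. The labels give neither age, sex nor strain of the mice, and nothing in them says that replicates are different cultures or different mice. The p-values therefore rest on a spread between replicates that may be technical. All comparisons with untreated cells share the same 2 untreated libraries.

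Complex I (NADH dehydrogenase) and complex II (succinate dehydrogenase) pass electrons by way of ubiquinone to complex III, and cytochrome c carries them on to complex IV (cytochrome c oxidase), which reduces oxygen. The proton gradient built along the way drives complex V, the ATP synthase. Every complex except complex II joins subunits encoded in mitochondrial DNA, which form part of its catalytic or proton-conducting core, to subunits encoded in the nucleus. Several nuclear complex IV subunits exist as isoforms with their own genes, some typical of striated muscle or testis.

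Total counts were between 37345575 and 50896445 per library, and 3 counts corresponded to 0.0599 to 0.0801 CPM. Replicates were no duplicates: chi-square divided by its degrees of freedom was 22.7 to 27.6 between them. The fibroblast label matched its markers: all 10 fibroblast markers were detected, and their summed level was 21554 to 21856 CPM in untreated cells, 11373 to 11490 at 10 ng/ml, 12213 to 13492 at 30 ng/ml and 19176 to 20231 at 100 ng/ml. Summed markers of other cell types that moved with the groups were low. The 10 macrophage and leukocyte markers (C1qa at 0 in all libraries, 5 under 1 CPM in each) summed to 29.5 to 33.3 CPM untreated, 64.8 to 73.7 at 10 ng/ml, 55.1 to 68.1 at 30 ng/ml and 47.1 to 50.6 at 100 ng/ml. For 6 adipocyte markers (Lep at 0, 5 under 1 CPM in all libraries) the sums were 2.36 to 3.37, 16.2 to 19.6, 15.8 to 17.3 and 6.66 to 8.47 CPM in that order. The highest of the 6 was Fabp4, with a mean of 11.1 CPM, so these sums rest mainly on 1 gene. For 10 lung epithelial markers (Epcam and Nkx2-1 at 0, 7 under 1 CPM in all libraries) the sums were 1.42 to 1.71, 5.96 to 6.31, 5.24 to 7.996 and 2.36 to 3.002 CPM. For 6 mesothelial markers (3 under 1 CPM in all libraries) they were 12.9 to 13.4, 4.70 to 6.39, 4.36 to 5.62 and 8.67 to 11.2 CPM. For 8 striated muscle markers (Ckm, Myh7 and Myog at 0, 7 under 1 CPM in all libraries) they were no more than 2.99 CPM. Their part in the results below was not tested. In bulk RNA, fewer cells of a type and less RNA per cell cannot be told apart.

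The members held between 39842 and 43407 CPM of each library, most of it mitochondrial. Messages of the 13 mitochondrial genes took 3.64% and 3.65% of all counts in untreated cells, 3.48% and 3.68% at 10 ng/ml, 3.46% and 3.37% at 30 ng/ml, and 3.42% and 3.66% at 100 ng/ml. The 88 nuclear members together took 0.601% and 0.623% of counts in untreated cells, 0.705% and 0.653% at 10 ng/ml, 0.649% in each library at 30 ng/ml, and 0.606% and 0.637% at 100 ng/ml. The nuclear share was higher in every library of the 10 and 30 ng/ml groups than in untreated cells. The mitochondrial share of untreated replicate 1 includes an mt-Atp6 value that stood apart, described below. Without mt-Atp6, the mitochondrial members summed to 34638 and 36497 CPM untreated, 34267 and 36156 at 10 ng/ml, 34046 and 33129 at 30 ng/ml, and 33481 and 36575 at 100 ng/ml. These ranges overlap at 10 and 100 ng/ml, and both 30 ng/ml libraries are below the untreated ones. The 95% Wilson intervals of the mitochondrial shares reached at most 0.00588 percentage points to either side, which covers counting error only. With 2 libraries against 2, no exact permutation test can pass the threshold used here.

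Per kilobase of annotated exon, the mitochondrial messages stood far above the nuclear ones. Their median over all 8 libraries was 2343 CPM per kilobase, from 507 for mt-Nd3, a complex I subunit, to 8168 for mt-Co1, the catalytic subunit of complex IV. The nuclear median was 28.9 CPM per kilobase, from 1.74 for the complex I assembly factor Ndufaf6 to 209 for the complex IV subunit Cox6a1. By complex, the nuclear median was 24.6 for complex I, 44.4 for complex II, 44.5 for complex III, 58.5 for complex IV, 39.2 for complex V and 4.57 for assembly factors, all in CPM per kilobase.

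At 10 ng/ml, nuclear complex IV genes held most of the called changes. In edgeR's quasi-likelihood test with Benjamini-Hochberg adjustment over all 17360 tested genes, 13 of the 101 members rose and 1 fell at 10 ng/ml at an adjusted p under 0.05. Over all tested genes 29.2% were called, 15.0% higher and 14.2% lower, so the share of members called higher was close to that of all genes. Unadjusted p was under 0.05 for 30 members, against 39.8% of all genes. The member changes were also narrower: their middle range (25th to 75th percentile) was -0.02 to 0.24 on the log2 scale, against -0.35 to 0.36 for all genes. All tested genes include those under 1 CPM, so these ranges were not matched for level. The median log2 change was 0.11 for the members and 0.01 for all genes.

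**Figure D1:**
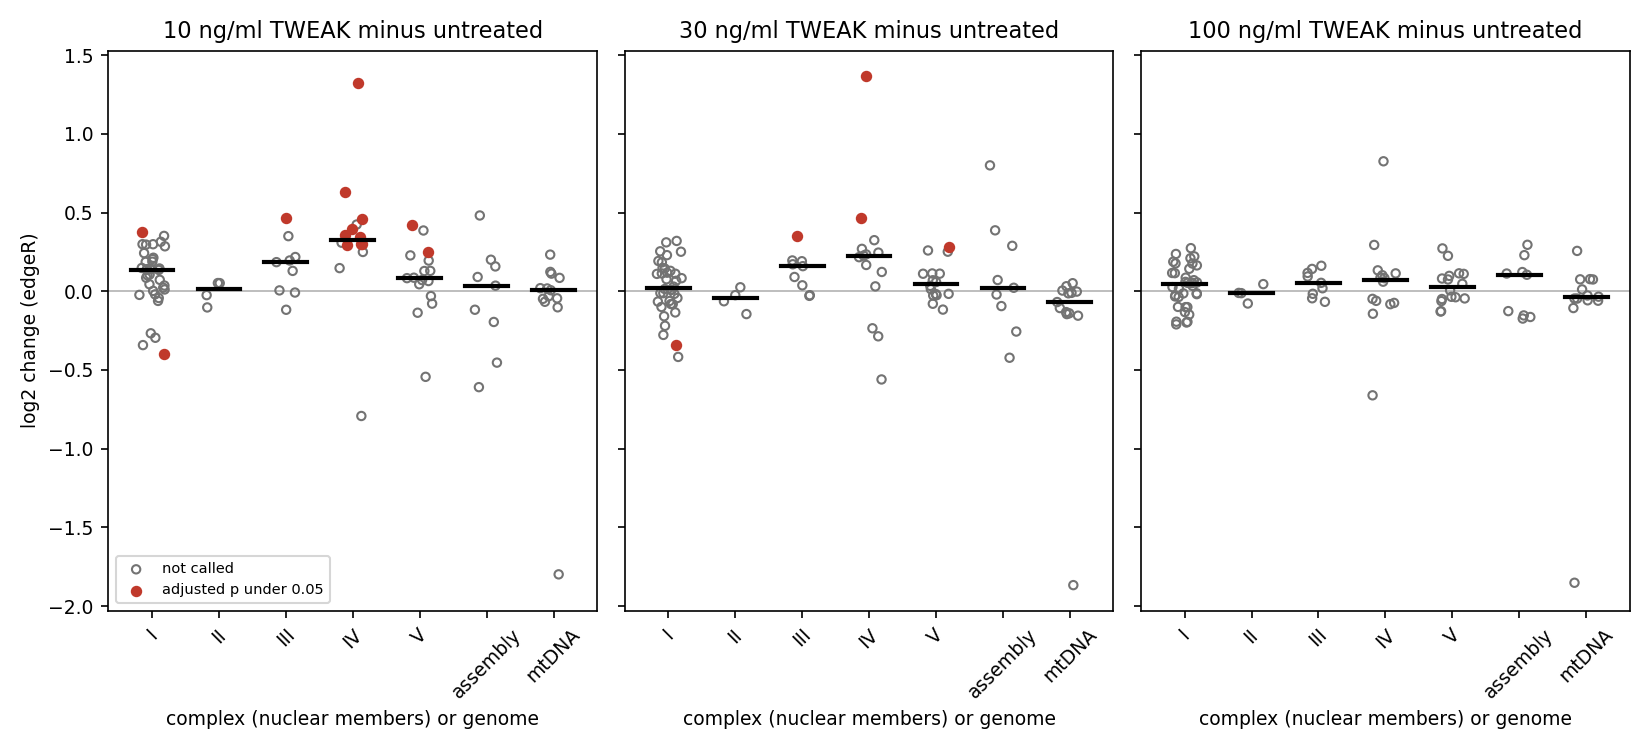
Log2 change from untreated cells (vertical axis, edgeR) of each member at 10, 30 and 100 ng/ml TWEAK, by complex for nuclear members and together for mitochondrial DNA (mtDNA). Filled points are members with an adjusted p under 0.05, open points are the others, and black bars are medians. At 10 ng/ml, 9 of 14 nuclear complex IV members are filled and their median is 0.33, while none of the 13 mtDNA points is filled. The lone mtDNA point near the bottom of each panel is mt-Atp6.

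Of the 14 nuclear members placed with complex IV, 9 rose at 10 ng/ml and none fell, with a median log2 change of 0.33. The 14 are 12 subunits, the supercomplex factor Cox7a2l and Ndufa4l2, a paralogue of the subunit Ndufa4. Of the 12 subunits, 8 rose. Among the 74 other nuclear members 4 rose and 1 fell, with a median of 0.10. Summed over the 14 genes, the level was 1119 and 1187 CPM in untreated cells, 1584 and 1325 at 10 ng/ml, 1273 and 1262 at 30 ng/ml, and 1084 and 1158 at 100 ng/ml. Both 10 ng/ml libraries and both 30 ng/ml libraries lay above both untreated ones. The difference between complexes was not tested. Fewer complex IV genes were called when certain libraries were left out: 3 rose and 1 fell without 10 ng/ml replicate 1, 3 rose without untreated replicate 1 and 4 rose without untreated replicate 2, while the medians were 0.24, 0.31 and 0.35.

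Cox7a2, the isoform of subunit 7a found in most tissues, had the largest rise among the complex IV subunits. The gene lies on chromosome 9 from 79755361 to 79759878, on the minus strand (mm10). It measured 38.5 and 35.3 CPM in untreated cells, 58.2 and 56.0 at 10 ng/ml, 38.6 and 48.9 at 30 ng/ml, and 35.1 and 35.6 at 100 ng/ml. The 10 ng/ml libraries stood above all 6 others. The change at 10 ng/ml was 1.55-fold, or 0.63 ± 0.12 on the log2 scale (± SE, edgeR adjusted p = 0.00493). At 30 ng/ml it was 0.25 ± 0.12 (edgeR adjusted p = 0.182), and at 100 ng/ml -0.06, with a 95% interval of -0.33 to 0.21.

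Cox7b, another small complex IV subunit, is on the X chromosome (106015700 to 106022450, plus strand). Its level was 72.6 and 76.8 CPM in untreated cells, 108 and 97.8 at 10 ng/ml, 87.0 and 93.0 at 30 ng/ml, and 74.5 and 81.3 at 100 ng/ml. Again both 10 ng/ml values exceeded all others, and the 30 ng/ml values came next. The log2 change was 0.46 ± 0.08 at 10 ng/ml (edgeR adjusted p = 0.00439), 0.27 ± 0.08 at 30 ng/ml (edgeR adjusted p = 0.0521) and 0.06 at 100 ng/ml, with an interval of -0.13 to 0.25.

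Cox6b1, which faces the intermembrane space and takes part in joining complex IV into a dimer, lies on chromosome 7 from 30616861 to 30626151. Untreated cells had 102 and 115 CPM, cells at 10 ng/ml 149 and 137, at 30 ng/ml 124 and 131, and at 100 ng/ml 118 and 117. The 10 ng/ml libraries were the highest and the 2 untreated ones the lowest. Its log2 change was 0.40 ± 0.08 at 10 ng/ml (edgeR adjusted p = 0.00807), 0.23 ± 0.08 at 30 ng/ml (edgeR adjusted p = 0.078) and 0.11 ± 0.08 at 100 ng/ml (edgeR adjusted p = 0.657). The testis-typical isoform Cox6b2, in contrast, was at 4.42 and 5.28 CPM untreated, 3.53 and 2.08 at 10 ng/ml, 3.19 and 3.38 at 30 ng/ml and 4.17 and 4.604 at 100 ng/ml. That log2 difference of -0.79 ± 0.26 at 10 ng/ml did not pass the test in edgeR (adjusted p = 0.0562).

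The other complex IV subunits called at 10 ng/ml were Cox5a, Cox5b, Cox6a1, Cox7c and Ndufa4. Cox5a and Cox5b, which sit on the matrix side, changed by 0.34 ± 0.11 and 0.36 ± 0.11 on the log2 scale (edgeR adjusted p = 0.0441 and 0.046). For Cox5b the 2 libraries at 10 ng/ml were unequal, at 95.9 and 75.2 CPM against 68.7 and 64.8 in untreated cells. Cox6a1, Cox7c and Ndufa4 each changed by 0.30, with standard errors of 0.09, 0.08 and 0.07 (edgeR adjusted p = 0.0418, 0.0236 and 0.0172). Ndufa4, first assigned to complex I and now counted as a complex IV subunit, measured 53.9 and 52.8 CPM untreated and 67.9 and 63.3 at 10 ng/ml. Cox6c passed the test at 30 ng/ml (0.46 ± 0.10, edgeR adjusted p = 0.0149) and not at 10 ng/ml (0.31 ± 0.10, edgeR adjusted p = 0.0596). The dose difference for Cox6c was itself not called.

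Replicates of Cox4i1 at 10 and 30 ng/ml, and of Cox8a and Cox7a2l at 30 ng/ml, were more than 1.5-fold apart. Cox4i1, the usual isoform of subunit 4, was at 175 and 220 CPM untreated, 339 and 191 at 10 ng/ml, 189 and 305 at 30 ng/ml, and 179 and 196 at 100 ng/ml. A single library at each of 10 and 30 ng/ml was high, and the log2 change at 10 ng/ml was 0.42 ± 0.29 (edgeR adjusted p = 0.325). Cox8a was at 53.1 CPM in one 30 ng/ml library while the other 7 libraries held 95.3 to 122 CPM. Cox7a2l, the factor that joins complexes III and IV into supercomplexes, measured 194 and 201 CPM untreated, 228 and 209 at 10 ng/ml, 227 and 108 at 30 ng/ml, and 108 and 141 at 100 ng/ml. The low 30 ng/ml library is the one low in Cox8a, and both 100 ng/ml libraries are below both untreated ones. The log2 difference at 100 ng/ml was -0.66 ± 0.29 and did not pass the test (edgeR adjusted p = 0.447).

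**Figure D2:**
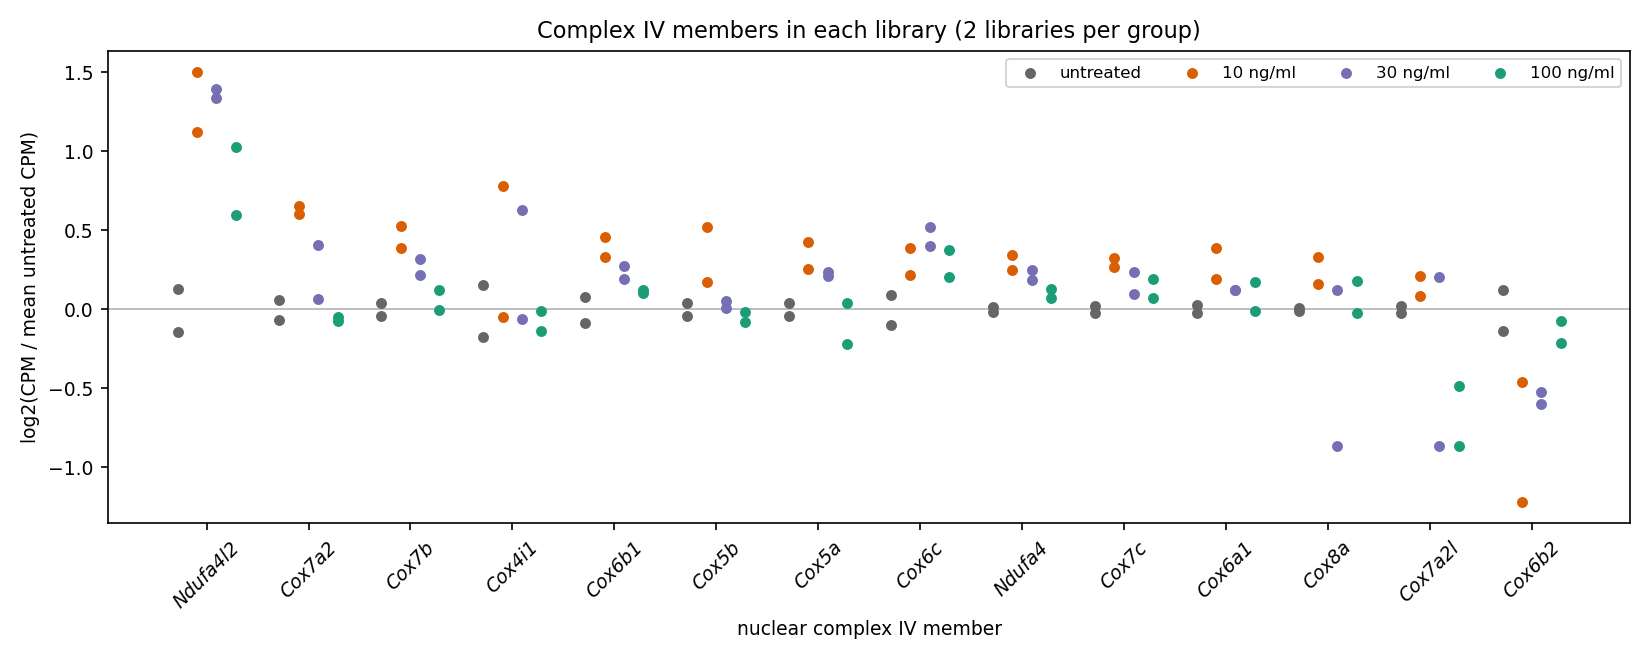
Level of each of the 14 nuclear complex IV members in each library, as the log2 ratio of its CPM to the mean of the untreated libraries (vertical axis); each point is 1 library, coloured by group. The 10 ng/ml points lie above 0 for 12 of the 14 genes in both libraries, Cox4i1 has 1 point on either side, and Cox6b2 is lower. Ndufa4l2 stands highest, and replicates are widely spread for Cox4i1 at 10 and 30 ng/ml and for Cox8a and Cox7a2l at 30 ng/ml.

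Of the other complex IV isoforms, 6 were below the level limit. Cox7b2 and Cox8c, the testis isoforms, had 0 counts in all 8 libraries, which allows at most 0.0599 to 0.0801 CPM per library by counting error. Cox8b, a striated muscle isoform, had between 0 and 6 counts, and Cox4i2, an isoform of subunit 4 known from lung and from low oxygen, between 0 and 9. The muscle isoforms Cox7a1 and Cox6a2 had 0 to 21 and 27 to 57 counts. These 6 rows and 7 pseudogene rows were the 13 below the level limit and were not tested as members.

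Ndufa4l2, known as a gene induced in low oxygen and as a relative of Ndufa4, showed the largest rise of any member. It lies on chromosome 10 from 127514967 to 127517154. Its level was 7.61 and 6.30 CPM in untreated cells, 19.7 and 15.2 at 10 ng/ml, 18.3 and 17.6 at 30 ng/ml, and 14.2 and 10.5 at 100 ng/ml. Every treated library stood above both untreated ones. The log2 change was 1.32 ± 0.19 at 10 ng/ml (2.504-fold, edgeR adjusted p = 0.00152), 1.37 ± 0.19 at 30 ng/ml (edgeR adjusted p = 0.0017) and 0.83 ± 0.19 at 100 ng/ml (edgeR adjusted p = 0.117). The difference between 10 and 100 ng/ml, 0.50 ± 0.19, did not pass (edgeR adjusted p = 0.106).

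Of the counts on Ndufa4 and Ndufa4l2 together, Ndufa4l2 held 12.4% and 10.7% in untreated cells, 22.5% and 19.3% at 10 ng/ml, 23.2% and 21.7% at 30 ng/ml, and 20.1% and 15.3% at 100 ng/ml. The 95% Wilson intervals reached at most 1.48 percentage points to either side and cover counting error only. An exon of Ndufa4l2 overlaps one of Shmt2, a mitochondrial serine hydroxymethyltransferase, whose mean level was 62.8 CPM untreated and 149 at 10 ng/ml (log2 change 1.24 ± 0.09, edgeR adjusted p = 4.71903e-05). At 100 ng/ml Shmt2 changed by 0.17 ± 0.09 (edgeR adjusted p = 0.532). Whether strand was used in counting is not given in the sources used here, so reads of the 2 genes may not be separated. The tested genes whose log2 CPM followed Ndufa4l2 most closely over the 8 libraries were Rhbdl3 (Pearson r = 0.992), Nfkbid (0.992) and Nudt1 (0.991), given as a description of libraries that share 4 groups.

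Promoter stretches are shown for 4 complex IV genes that rose at 10 ng/ml, so that genes that moved together can be compared. Each stretch is the longest run free of annotated exons within the 250 bases upstream of the RefSeq start (GRCm38.p6). It runs 5′ to 3′ on the gene's strand. They are chr9:79759879-79760103 (minus strand), chrX:106015450-106015699 (plus strand), chr7:30626152-30626364 (minus strand) and chr5:115348982-115349129 (minus strand), in the order printed. Capitals mark overlapping matches, on the 2 strands, to the NRF1 motif GCGCATGCG.
Cox7a2: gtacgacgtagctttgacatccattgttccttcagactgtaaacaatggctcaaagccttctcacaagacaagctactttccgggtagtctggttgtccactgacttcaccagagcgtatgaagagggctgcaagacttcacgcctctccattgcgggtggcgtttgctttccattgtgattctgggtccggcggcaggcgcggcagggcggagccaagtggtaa
Cox7b: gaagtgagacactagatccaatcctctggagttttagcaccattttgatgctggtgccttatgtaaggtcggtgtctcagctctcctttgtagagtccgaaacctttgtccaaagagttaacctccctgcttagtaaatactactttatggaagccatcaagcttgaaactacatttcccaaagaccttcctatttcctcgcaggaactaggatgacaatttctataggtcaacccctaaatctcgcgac
Cox6b1: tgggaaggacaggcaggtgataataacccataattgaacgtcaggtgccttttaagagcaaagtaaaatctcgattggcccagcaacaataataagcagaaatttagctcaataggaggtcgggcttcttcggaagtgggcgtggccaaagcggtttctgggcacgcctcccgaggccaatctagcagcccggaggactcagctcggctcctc
Cox6a1: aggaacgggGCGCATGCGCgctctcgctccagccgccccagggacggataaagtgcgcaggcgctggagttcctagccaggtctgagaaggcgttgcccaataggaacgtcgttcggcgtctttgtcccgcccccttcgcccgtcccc
Among these 4 stretches, the NRF1 letters appear only in that of Cox6a1. The stretches differ in base composition: GC content was 53.8% for Cox7a2, 43.6% for Cox7b, 52.1% for Cox6b1 and 66.9% for Cox6a1.

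Over the 300-base windows around the start (250 bases before it and 50 after), 74 of the 101 members had a RefSeq sequence. On either strand, the NRF1 motif was in 10 of these 74 (13.5%), against 1.81% of the 27025 windows of all genes. The ETS motif CCGGAAG was in 23.0% of member windows against 9.14%, the YY1 motif AAGATGGCG in 10.8% against 1.48%, and the estrogen-related receptor motif AAGGTCA in 10.8% against 4.65%. The hypoxia motif ACGTG was in 24.3% against 19.6%. Member promoters also had a higher median GC content in the upstream 250 bases, 57.4% against 52.0%. Of the 10 members with a window that rose at 10 ng/ml, 2 held the NRF1 motif, 2 the ETS motif, none the YY1 or estrogen-related receptor motif and 3 the hypoxia motif. Of the 64 others, 8, 15, 8, 8 and 15 did, in the order NRF1, ETS, YY1, estrogen-related receptor and hypoxia. A match is a description of letters and does not show binding.

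In complex III, Uqcrq was the called member. Uqcrq, a small accessory subunit that helps hold cytochrome b in the complex, lies on chromosome 11 from 53427922 to 53430831. It measured 65.4 and 66.8 CPM untreated, 95.5 and 87.1 at 10 ng/ml, 81.5 and 87.2 at 30 ng/ml, and 73.8 and 67.3 at 100 ng/ml. Libraries at 10 and 30 ng/ml were all above those at 100 ng/ml and untreated. The log2 change was 0.47 ± 0.08 at 10 ng/ml (edgeR adjusted p = 0.00375), 0.35 ± 0.08 at 30 ng/ml (edgeR adjusted p = 0.017) and 0.09 ± 0.08 at 100 ng/ml (edgeR adjusted p = 0.733). The 9 nuclear complex III genes had a median of 0.18 at 10 ng/ml. Among the electron-carrying subunits, Cyc1 (cytochrome c1) was at 0.35 ± 0.14 (edgeR adjusted p = 0.0984) and Uqcrfs1 (the Rieske iron-sulfur protein) at 0.01 ± 0.07.

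Complex I had 36 nuclear members, of which Ndufa2 rose and Ndufb2 fell at 10 ng/ml, with a median log2 change of 0.14. None of its 7 nuclear core subunits was called at 10 ng/ml by edgeR, DESeq2 or limma-voom (1 with an unadjusted p under 0.05 in edgeR). Ndufa2, an accessory subunit next to the NADH-oxidising arm, was at 28.1 and 32.6 CPM untreated and 41.3 and 37.6 at 10 ng/ml (0.38 ± 0.11, edgeR adjusted p = 0.0313). Ndufb2, an accessory subunit of the membrane arm, was at 18.2 and 18.5 CPM untreated, 14.3 and 13.5 at 10 ng/ml, 14.6 and 12.9 at 30 ng/ml, and 14.5 and 17.5 at 100 ng/ml. All treated libraries were below the untreated ones, and the log2 change at 10 ng/ml was -0.40 ± 0.13 (edgeR adjusted p = 0.0496). An exon of Ndufb2 overlaps one of Braf, a kinase gene that also fell at 10 ng/ml (-0.48 ± 0.12, edgeR adjusted p = 0.0169), so its counts are uncertain. Ndufv3, an accessory subunit of the NADH-oxidising arm, fell at 30 ng/ml (-0.34 ± 0.10, edgeR adjusted p = 0.0379), from 77.7 and 80.3 CPM untreated to 61.6 and 63.1. At 10 ng/ml it was at 65.4 and 63.3 CPM, also below both untreated libraries (-0.30 ± 0.10, edgeR adjusted p = 0.0537), and at 100 ng/ml at 70.3 and 85.6 CPM.

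Complex II, encoded wholly in the nucleus, had no called change. None of Sdha to Sdhd was called at any dose by edgeR, DESeq2 or limma-voom, and their median log2 change was 0.01 at 10 ng/ml, -0.04 at 30 ng/ml and -0.01 at 100 ng/ml. No complex II gene had an unadjusted p under 0.05 in edgeR against untreated cells. Sdha, the flavoprotein, measured 257 and 249 CPM untreated, 242 and 229 at 10 ng/ml, 242 in each 30 ng/ml library, and 232 and 247 at 100 ng/ml, and its change at 10 ng/ml had a 95% interval of -0.25 to 0.04. That of Sdhc, a membrane anchor, was -0.10 to 0.20.

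In complex V, of 16 nuclear members, 2 rose at 10 ng/ml, and both encode subunit c, which forms the rotating ring. Atp5g1 was at 42.2 and 45.6 CPM untreated and 65.0 and 52.4 at 10 ng/ml (0.42 ± 0.13, edgeR adjusted p = 0.0499). Atp5g2 was at 73.8 and 73.2 CPM untreated, 88.8 and 85.8 at 10 ng/ml, 83.7 and 94.5 at 30 ng/ml, and 91.2 and 86.4 at 100 ng/ml. All 6 treated libraries had more Atp5g2 than the untreated ones, with log2 changes of 0.25, 0.28 and 0.27, each ± 0.08, and edgeR adjusted p of 0.0479, 0.0379 and 0.201. The third subunit c gene, Atp5g3, was at 83.5 and 94.8 CPM untreated and 92.3 and 91.5 at 10 ng/ml. None of the 5 members of the F1 part, which holds the catalytic sites, was called at 10 ng/ml by edgeR (1 unadjusted p under 0.05) or DESeq2, while limma-voom called 1. Among them Atp5b, the catalytic beta subunit, was at 679 and 666 CPM untreated and 725 and 682 at 10 ng/ml.

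No assembly factor among the 9 members was called at any dose by edgeR, DESeq2 or limma-voom, with 1, 1 and 0 unadjusted p under 0.05 in edgeR at 10, 30 and 100 ng/ml. Ndufaf4 could not be read: its untreated libraries held 18.8 and 4.43 CPM and its 100 ng/ml libraries 7.11 and 21.4. Over the members, 7 of 101 had replicates more than 1.5-fold apart in some group, against 19.6% of tested genes averaging 1 CPM or more. Above a mean of 10 CPM these were 6 of 96 members and 8.47% of tested genes. No called member was among the 7.

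Several nuclear calls were lost when 1 library was left out, in refits that hold fewer libraries. Cox7a2, Cox7b, Uqcrq and Ndufa4l2 kept their call at 10 ng/ml whichever of the 8 libraries was left out, with an edgeR adjusted p of at most 0.0413, 0.041, 0.0321 and 0.0149. Cox6b1 lost its call without untreated replicate 1 or 10 ng/ml replicate 1, and Ndufa4 without these or untreated replicate 2. Ndufa2 lost its call without untreated replicate 1 or either 10 ng/ml library, and Cox7c without any of the untreated or 10 ng/ml libraries. Calls of Cox6a1, Cox5a, Cox5b, Ndufb2, Atp5g1 and Atp5g2 at 10 ng/ml were lost in 5 to 7 of the 8 refits, also without libraries of other doses. At 30 ng/ml Ndufa4l2 kept its call throughout, Cox6c lost it without untreated replicate 1 or 30 ng/ml replicate 2, and Uqcrq without these or untreated replicate 2. The calls of Ndufv3 and Atp5g2 at 30 ng/ml were lost in 6 and 7 of 8 refits. No refit reversed the direction of a called member.

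None of the 13 mitochondrial members was called in edgeR at 10, 30 or 100 ng/ml, with 1, 4 and 2 unadjusted p under 0.05. DESeq2 called 1 of them lower at 10 and at 30 ng/ml and limma-voom none. Their median log2 change was 0.01 at 10 ng/ml, -0.07 at 30 ng/ml and -0.03 at 100 ng/ml. Without mt-Atp6 the changes at 10 ng/ml ran from -0.10 for mt-Co1 to 0.23 for mt-Nd3. The complex IV core gene mt-Co1 was at 13142 and 13450 CPM untreated, 12161 and 12611 at 10 ng/ml, 12392 and 11651 at 30 ng/ml, and 12202 and 13347 at 100 ng/ml. Its 95% interval at 10 ng/ml was -0.22 to 0.01. For mt-Co2 and mt-Co3, the other core genes of complex IV, the log2 change at 10 ng/ml was 0.02, with intervals of -0.13 to 0.17 for each.

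For complex III, mt-Cytb (cytochrome b) measured 3633 and 3840 CPM untreated and 3874 and 4051 at 10 ng/ml (0.08 ± 0.06, edgeR adjusted p = 0.311). The 7 complex I genes mt-Nd1 to mt-Nd6 and mt-Nd4l lay between -0.07 for mt-Nd6, the gene on the opposite strand to the others, and 0.23 for mt-Nd3. mt-Nd3 was at 144 and 176 CPM untreated and 178 and 198 at 10 ng/ml (0.23 ± 0.10, edgeR adjusted p = 0.132).

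One value stood apart. mt-Atp6, subunit a of the ATP synthase, was at 2299 CPM in untreated replicate 1 and 423 in untreated replicate 2, and at 363 to 406 in the 6 treated libraries. The log2 change was -1.80 ± 0.61 at 10 ng/ml, -1.87 ± 0.61 at 30 ng/ml and -1.85 ± 0.61 at 100 ng/ml (edgeR adjusted p = 0.0608, 0.064 and 0.27). Without untreated replicate 1 these were -0.12, -0.18 and -0.17 (edgeR adjusted p = 0.412, 0.225 and 0.681). Without untreated replicate 2 they were -2.56, -2.63 and -2.61 (edgeR adjusted p = 2.7832e-05, 4.22041e-05 and 8.77675e-05). mt-Atp6 overlaps mt-Atp8 and mt-Co3 on mitochondrial DNA (7927 to 8607), and reads of that message may be split between them. Its level was 106% of that of mt-Co3 in untreated replicate 1 and 16.2% to 17.8% in the other 7 libraries. mt-Atp8 did not stand apart, at 789 CPM in untreated replicate 1 and 769 to 915 in the others.

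**Figure D3:**
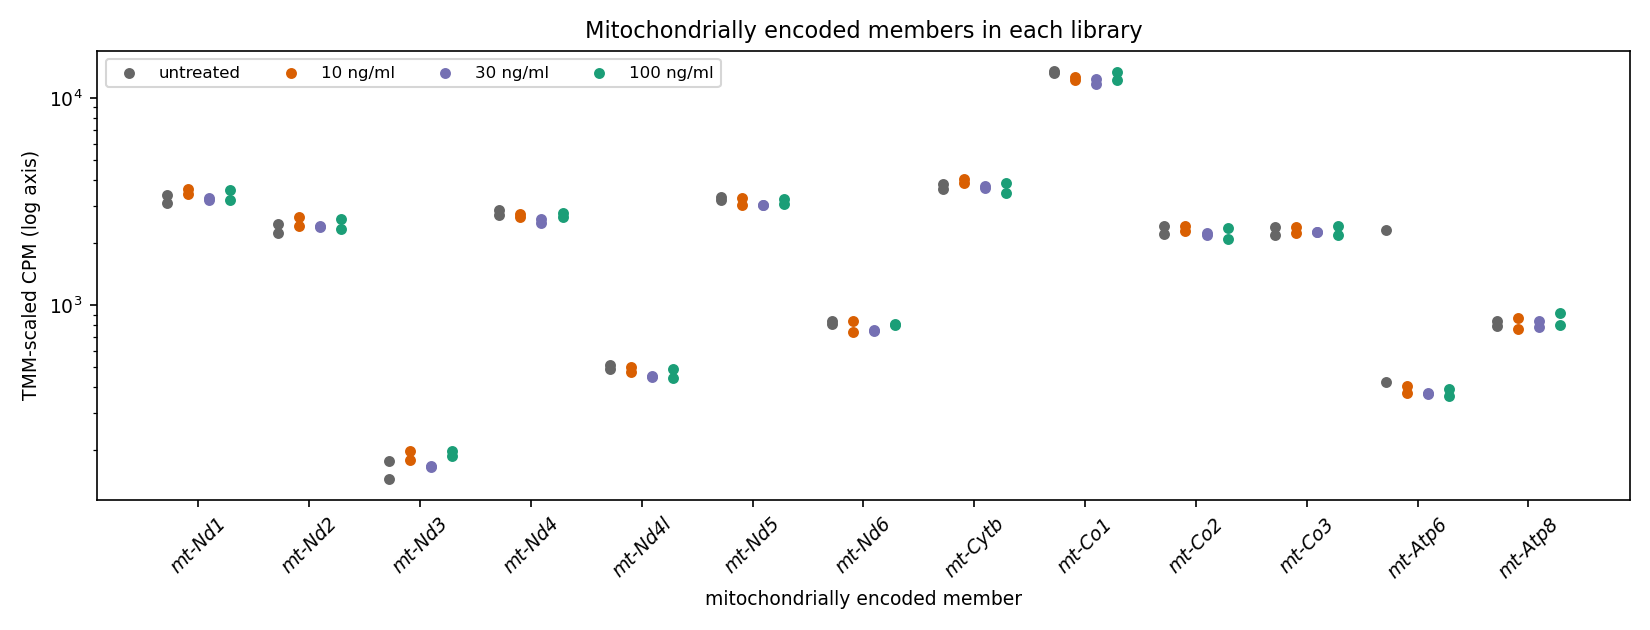
TMM-scaled CPM (log axis) of the 13 mitochondrially encoded members in each library; each point is 1 library, coloured by group. For 12 genes the 8 points lie close together, from about the level of mt-Nd3 (144 to 198) to that of mt-Co1 (11651 to 13450). For mt-Atp6 untreated replicate 1, at 2299 CPM, lies above the other 7.

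At 30 ng/ml, 4 members rose and 1 fell, against 12.6% of all genes called higher and 10.7% lower (23.3% in all). Those that rose were Ndufa4l2, Cox6c, Uqcrq and Atp5g2, and Ndufv3 fell. Unadjusted p was under 0.05 for 19 members, against 34.4% of all genes. The members' median log2 change was 0.03, and that of complex IV was 0.22.

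At 100 ng/ml no member was called by edgeR, with 5 unadjusted p under 0.05. Over all genes 1.12% were called, 0.812% higher and 0.305% lower, and 11.6% had an unadjusted p under 0.05. DESeq2 called 1 member, against 3.44% of all tested genes, and limma-voom none, against 1.11%. The complex IV median was 0.07. The highest labelled dose had the fewest called genes among members and over all genes.

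The direct comparison of 10 with 100 ng/ml called 6 members, all higher at 10 ng/ml, against 22.0% of all genes called and 11.2% higher. The untreated libraries are no part of this difference, but they enter its filter, scaling and estimate of spread. Unadjusted p was under 0.05 for 20 members, against 34.3% of all genes. The 6 called members were Cox7a2 (0.69 ± 0.12, edgeR adjusted p = 0.00447), Cox5a (0.43 ± 0.11, 0.0253), Cox5b (0.41 ± 0.11, 0.0363), Cox7b (0.40 ± 0.08, 0.0119), Uqcrq (0.37 ± 0.08, 0.0148) and Cox6b1 (0.28 ± 0.08, 0.0426). Of the 6, 5 encode complex IV subunits. For Ndufa4l2 and Atp5g2 the same difference was not called. Between 30 and 100 ng/ml no member was called in edgeR, with 11 unadjusted p under 0.05, and DESeq2 called 1 and limma-voom none. Of all genes 15.2% were called there in edgeR, 8.04% higher and 7.15% lower, and 27.6% had an unadjusted p under 0.05. DESeq2 called 17.2% of all genes there and limma-voom 15.6%. Between 10 and 30 ng/ml no gene of any kind was called in edgeR (0.0%), and 5 members had an unadjusted p under 0.05, against 6.96% of all genes, with none called by DESeq2 or limma-voom. All 13 mitochondrial members were fitted higher at 10 than at 30 ng/ml, by a median of 0.08, and none had an unadjusted p under 0.05. They were measured in the same libraries, so they do not count as 13 separate results.

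Annotated exon length moved with the changes, a relation looked for after the data were seen. Among genes outside the set averaging 10 CPM or more, the median log2 change at 10 ng/ml was 0.24 for exon lengths up to 700 bases (146 genes, 29.5% called higher), 0.19 from 701 to 1000 bases (126 genes, 30.2%), 0.16 from 1001 to 1500 bases (331 genes, 31.4%), 0.07 from 1501 to 2500 bases (1030 genes, 22.7%) and -0.07 above 6000 bases (3412 genes, 14.9%). Nuclear members are short, with a median exon length of 1756 bases, and complex IV members shorter, at 1172.5 bases, against 3848.5 for all tested genes. In the bins up to 2500 bases the medians of nuclear members were 0.22, 0.14, 0.15 and 0.17. Those of complex IV members were 0.25 up to 700 bases (1 gene, not called), 0.40 from 701 to 1000 bases (3 of 3 rose), 0.30 from 1001 to 1500 bases (4 of 6), 0.36 from 1501 to 2500 bases (2 of 3) and 0.31 from 2501 to 4000 bases (1 gene, not called). The part of length in the results was not tested.

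**Figure D4:**
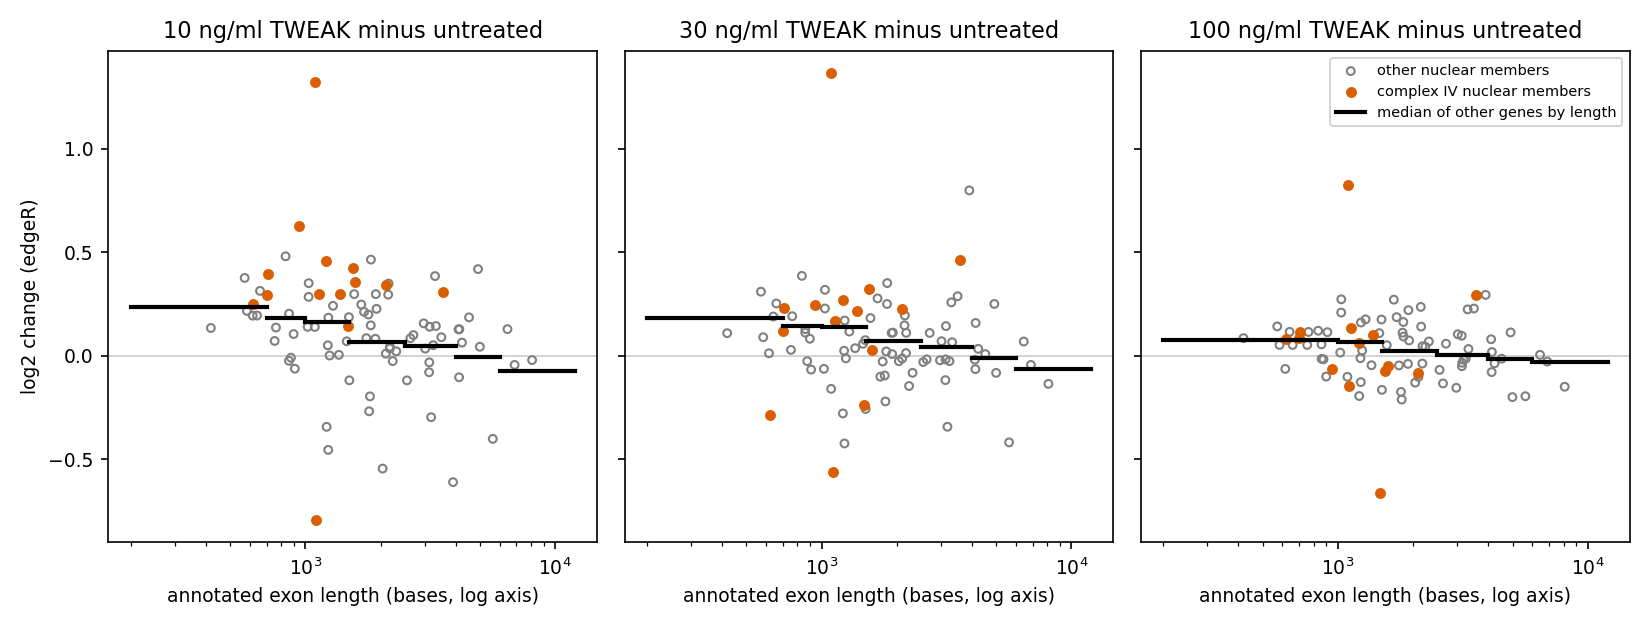
Log2 change from untreated cells (vertical axis, edgeR) against annotated exon length in bases (log axis) for nuclear members at each dose; filled points are complex IV members, open points the other nuclear members, and black bars the median of genes outside the set in the same length range. At 10 ng/ml the bars step down from 0.24 for the shortest genes to -0.07 for the longest. Most complex IV points lie above their bar in that panel.

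Genes that serve the pathway from outside the set were read from lists, each by its count of called genes at 10 ng/ml, to be read against the 15.0% of all tested genes called higher and 14.2% called lower. Of 17 genes for cytochrome c and other electron carriers none rose and 2 fell: Etfa (-0.36 ± 0.08, edgeR adjusted p = 0.00962) and Etfdh (-0.43 ± 0.12, edgeR adjusted p = 0.0248), which feed electrons from fatty acid oxidation to ubiquinone. Cycs, cytochrome c itself, was at 56.0 and 57.9 CPM untreated and 65.9 and 66.3 at 10 ng/ml (0.22 ± 0.07, edgeR adjusted p = 0.0657). Of 29 assembly genes for complexes III, IV and V, 1 rose, Lrpprc, which stabilises mitochondrial messages (0.25 ± 0.08, edgeR adjusted p = 0.0381). Of 12 tested complex I and II assembly genes, Chchd4, an import factor of the intermembrane space, rose (0.81 ± 0.18, edgeR adjusted p = 0.0109) and Tmem126b fell (-0.66 ± 0.10, edgeR adjusted p = 0.00189).

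Of 20 genes for copying and transcribing mitochondrial DNA, 4 rose and 1 fell. Tfam, its packaging and transcription factor, was at 26.6 and 26.5 CPM untreated and 34.9 and 37.4 at 10 ng/ml (0.45 ± 0.09, edgeR adjusted p = 0.00883), and Twnk, the helicase, changed by 0.42 ± 0.11 (edgeR adjusted p = 0.0235). Pnpt1, a ribonuclease, fell (-0.45 ± 0.13, edgeR adjusted p = 0.0385). Of 18 tested regulators of mitochondrial biogenesis 3 rose, close to the share over all genes, among them Myc (2.06 ± 0.16, edgeR adjusted p = 4.88537e-05) and Hif1a (0.40 ± 0.06, edgeR adjusted p = 0.0017). Of 25 genes for the tricarboxylic acid cycle and the entry of pyruvate into it, 2 rose and 8 fell. Among those called, only Idh2, Ogdh and Sucla2, all lower, belong to the cycle itself. Pdk1, a kinase that inhibits pyruvate dehydrogenase, rose (0.75 ± 0.08, edgeR adjusted p = 0.000279). The kinase genes went both ways: Pdk4 also rose, while Pdk2 and Pdk3 fell. Pdha1, a subunit of pyruvate dehydrogenase, fell (-0.47 ± 0.06, edgeR adjusted p = 0.000617). Of 12 tested carriers of the mitochondrial membranes 3 rose, including the ATP and ADP exchanger Slc25a5 (0.54 ± 0.08, edgeR adjusted p = 0.00169). The medians of the 7 lists were -0.02, 0.01, -0.08, 0.02, 0.05, 0.00 and 0.19, in the order given.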

How the data were processed

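The deposited table holds raw read counts per gene, not normalized. The mm10 build, STAR and StringTie are named per the submitters' processing notes; no source used here gives the counting program, the annotation or the use of strand. Groups and replicate numbers come from the sample titles. Rows without a symbol (3225 of 55335, 0.168% to 0.178% of counts) were left out.

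Genes were tested with edgeR 4.0.16 (glmQLFit, glmQLFTest) in R 4.3.3 after filterByExpr by group and TMM scaling, in 1 fit of all 8 libraries with a mean per group (4 residual and 3.77 prior degrees of freedom). All 101 members were among the 17360 tested genes. P-values are two-sided, Benjamini-Hochberg adjusted over all tested genes, with a threshold of 0.05. Levels are TMM-scaled CPM, except for the level limit that chose the members, which used unscaled totals. Standard errors (SE) are approximate, each derived from the F statistic of its change. The code of the fit was also run on counts simulated from the means and spreads of these data, which is no evidence for any result given here.

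Alternatives were DESeq2 1.42.0, limma-voom (limma 3.58.1), other scalings and filters, a replicate block, a fit of only the groups compared, a minimum absolute log2 change of 0.5 and omission of single libraries. Replicate numbers did not pair the libraries. Members and lists were chosen with earlier results of these data known. Named were all mitochondrial members, isoforms, up to 5 called members per direction and dose, 2 per complex by p at 10 ng/ml, up to 3 between doses and up to 4 per list; not all of these, and some members outside this rule, chosen after their values were seen, are described. Positions and exon lengths are from GENCODE M21 on mm10 (100 of 101 members matched 1 gene, 40 had an exon overlapping another gene), and promoter sequences from RefSeq (GRCm38.p6).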

Additional observations from a re-analysis of the deposited data

Results flagged for a closer look

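The change from untreated cells differed between 10 and 100 ng/ml for 6 members in edgeR's direct contrast of these groups. The change at 10 ng/ml exceeded that at 100 ng/ml, on the log2 scale, by 0.69 for Cox7a2, 0.43 for Cox5a, 0.41 for Cox5b, 0.40 for Cox7b, 0.37 for Uqcrq and 0.28 for Cox6b1. Cox7a2 kept this call whichever library was left out. Cox5b lost it in 7 of the 8 refits that each left out 1 library and Cox6b1 in 6. Cox5a lost it without 10 ng/ml replicate 1 or 100 ng/ml replicate 1, as did Cox7b, and Uqcrq without 10 ng/ml replicate 1 or 100 ng/ml replicate 2.

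The mitochondrial ribosomal RNAs mt-Rnr1 and mt-Rnr2, which are no members, had a higher share of counts in every treated library than in untreated cells. The share was 0.118% and 0.134% untreated, 0.148% and 0.159% at 10 ng/ml, 0.150% and 0.159% at 30 ng/ml, and 0.163% and 0.164% at 100 ng/ml. The log2 change of mt-Rnr2 was 0.27 ± 0.07 at 10 ng/ml, 0.30 ± 0.07 at 30 ng/ml and 0.44 ± 0.08 at 100 ng/ml (edgeR adjusted p = 0.0302, 0.0241 and 0.0427). That of mt-Rnr1 was 0.23, 0.19 and 0.18, each ± 0.07, and passed the test only at 10 ng/ml (edgeR adjusted p = 0.0406, 0.0903 and 0.383). How ribosomal RNA was removed before sequencing is not given in the sources used here, and its part in these shares was not tested.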

How the results depend on the processing

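The 14 members called at 10 ng/ml became 7 with no low-count filter and 2 with a log2 change of at least 0.5, and 4 to 13 when 1 library was left out, the lowest without untreated replicate 1; DESeq2 and limma-voom each called 18. The 5 called at 30 ng/ml became 3 with no filter, 8 with a mean of at least 1 CPM, 1 with a log2 change of at least 0.5, and 1 to 7 with a library left out. The 0 at 100 ng/ml became 1 in DESeq2 and 0 to 1 with a library left out. The 6 between 10 and 100 ng/ml became 1 with a log2 change of at least 0.5 and 2 to 5 with a library left out; Cox5a, Cox5b and Cox6b1 also lost this call in a fit of only these groups, Cox5b and Cox6b1 with no low-count filter, and Cox6b1 with the replicate block. The 0 between 30 and 100 ng/ml became 1 each with a mean of at least 1 CPM, in DESeq2 and with the replicate block, and 0 to 2 with a library left out, and the 0 between 10 and 30 ng/ml became 0 to 1. With a library left out, the median log2 change of nuclear members was 0.0736 to 0.179 at 10 ng/ml, 0.0197 to 0.103 at 30 ng/ml and -0.0172 to 0.083 at 100 ng/ml, and that of mitochondrial members -0.0758 to 0.0497 at 10 ng/ml and -0.133 to -0.0061 at 30 ng/ml. Such refits hold fewer libraries, and the cause of the other changes was not tested. The share of all tested genes called also moved. At 10 ng/ml it was 29.2% in the main fit, 16.5% with no low-count filter, 30.4% in DESeq2 and 30.2% in limma-voom. At 30 ng/ml it was 23.3% in the main fit, 12.7% with no filter and 29.8% with a mean of at least 1 CPM. Between 10 and 100 ng/ml it was 22.0% in the main fit, 11.8% with no filter and 19.1% in a fit of only these groups. With the replicate block 11 members rose and none fell at 10 ng/ml; correlations of same-numbered libraries were -0.05 to 0.03. The mitochondrial messenger share in untreated cells was 3.64% over all rows, and over member counts alone 85.6% untreated, 84.0% at 10 ng/ml, 84.0% at 30 ng/ml and 85.1% at 100 ng/ml. Alternatives added after seeing the data gave 13 called members at 10 ng/ml without both 100 ng/ml libraries; leaving out members whose replicates were over 1.5-fold apart could not lower the count, since none of them was called. Library totals in place of TMM gave 18 higher and 0 lower at 10 ng/ml. No called change reversed its sign; the medians of nuclear members at 100 ng/ml and of mitochondrial members at 10 ng/ml lay near 0 and crossed it in the ranges above.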
